A study of Mus musculus with 4 samples.

Results

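A set of 40 genes of the cell cycle was followed in group 2 innate lymphoid cells (ILC2s) sorted from the colon of mice on a high-fiber or a control diet. They were taken from the deposited count table by NCBI gene identifier, and all 40 symbols were found among its 27179 identifiers. Of these genes, 14 serve DNA replication (the Mcm helicase subunits, other fork proteins and the enzymes of deoxynucleotide supply), 2 are the G1/S cyclins Ccne1 and Ccne2, and 24 act in mitosis. ILC2s are tissue lymphocytes without antigen receptors that release type 2 cytokines. RNA came from C57BL/6J mice fed a high-fiber diet (2 libraries) or a control diet (2 libraries), 1 mouse per library. The labels do not give the kind of fiber, the time on the diet, the age of the mice or the gates of the sort. Libraries of the high-fiber diet held 29263068 and 20750263 counts and those of the control diet 30406730 and 20253987 counts. Levels are in CPM, counts relative to the scaled library size, given for library 1 and then library 2 of each diet. The labels do not tie equal library numbers to a shared litter or day. All 14 ILC2 marker genes checked, among them Gata3, Il1rl1 and Il5, had counts in every library, and their summed level was 19666 and 18845 CPM under high fiber and 17293 and 14741 CPM under the control diet.

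A dividing cell first copies its DNA and then separates the copies. The Mcm2 to Mcm7 proteins form the ring-shaped helicase that is loaded onto replication origins with the help of Cdc6 and activated by Cdc45, while Pcna is the sliding clamp that holds the DNA polymerases. Mitotic genes such as the B-type cyclins, the Aurora kinases and the spindle kinesins are switched on later, in G2. Genes of the G1/S wave are commonly controlled by E2F factors, and those of the G2/M wave by the MuvB-containing complexes at a motif called CHR, often beside CCAAT boxes bound by NF-Y. Tissue-resident ILC2s are known as slowly renewing cells that expand after stimulation.

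Promoters of both waves are shown, since the genes of replication and of mitosis are described apart. RefSeq promoter sequences (GRCm38.p6) were matched for 33 of the 40 genes, as 34 promoters, and the 250 bases before each start were searched on both strands for TTTGAA (CHR), for CCAAT, and for TTTGGCGC, TTTCCCGC, TTTGCCGC or TTTCGCGC (E2F). Capitals mark the matches, and opposite E2F matches can overlap within 1 run of capitals. The first 4 were taken by mean level, up to 2 per motif, among windows outside GENCODE exons and outside the gene's own RefSeq span, and Ccnb2 was added after its values were seen.
Mcm6, chr1:128359706-128359955, minus strand: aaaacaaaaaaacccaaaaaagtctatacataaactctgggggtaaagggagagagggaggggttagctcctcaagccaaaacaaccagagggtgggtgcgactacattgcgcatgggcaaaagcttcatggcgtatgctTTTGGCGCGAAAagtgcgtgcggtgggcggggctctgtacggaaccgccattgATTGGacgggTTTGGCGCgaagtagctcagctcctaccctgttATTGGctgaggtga
Mcm2, chr6:88898781-88899030, minus strand: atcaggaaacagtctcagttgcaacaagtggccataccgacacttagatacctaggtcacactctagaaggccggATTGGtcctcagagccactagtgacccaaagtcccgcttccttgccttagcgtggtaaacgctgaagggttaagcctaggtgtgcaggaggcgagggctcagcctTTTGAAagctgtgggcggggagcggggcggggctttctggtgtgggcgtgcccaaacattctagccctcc
Rrm1, chr7:102441445-102441694, plus strand: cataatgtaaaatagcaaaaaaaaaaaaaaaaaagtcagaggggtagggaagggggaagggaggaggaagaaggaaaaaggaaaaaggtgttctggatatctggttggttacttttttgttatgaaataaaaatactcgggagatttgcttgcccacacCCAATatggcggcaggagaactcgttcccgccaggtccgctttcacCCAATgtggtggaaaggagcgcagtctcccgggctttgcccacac
Kif11, chr19:37376132-37376381, plus strand: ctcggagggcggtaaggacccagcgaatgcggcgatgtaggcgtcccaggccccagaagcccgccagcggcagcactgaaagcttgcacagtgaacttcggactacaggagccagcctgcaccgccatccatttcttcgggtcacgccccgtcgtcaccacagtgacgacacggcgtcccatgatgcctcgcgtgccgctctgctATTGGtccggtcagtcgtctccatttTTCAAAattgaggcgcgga
Ccnb2, chr9:70421555-70421804, minus strand: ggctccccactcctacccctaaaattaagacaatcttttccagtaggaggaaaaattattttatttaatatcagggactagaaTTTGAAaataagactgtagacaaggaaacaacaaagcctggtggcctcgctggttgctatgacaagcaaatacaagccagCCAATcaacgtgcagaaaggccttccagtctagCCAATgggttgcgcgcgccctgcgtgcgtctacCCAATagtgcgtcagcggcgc
Mcm6 holds E2F matches and CCAAT boxes, whereas Kif11 and Ccnb2 hold CHR matches and CCAAT boxes. Mcm2 also holds a CHR match and a CCAAT box, and Rrm1 CCAAT boxes alone. A CCAAT match was present in 17 of 19 promoters of mitosis genes (89.5%) and 11 of 14 promoters of replication genes (78.6%), against 33.8% of all 32851 promoters in the table. A CHR match was present in 7 of 19 mitosis promoters (36.8%) and 2 of 14 replication promoters (14.3%), against 16.0% of all. An E2F match was present in 4 of 14 replication promoters (28.6%) and 1 of 19 mitosis promoters (5.26%), against 1.86% of all. The 1 promoter of a G1/S cyclin in the table, that of Ccne1, held none of these letters. These are matches of letters and not measured sites.

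**Figure D1:**
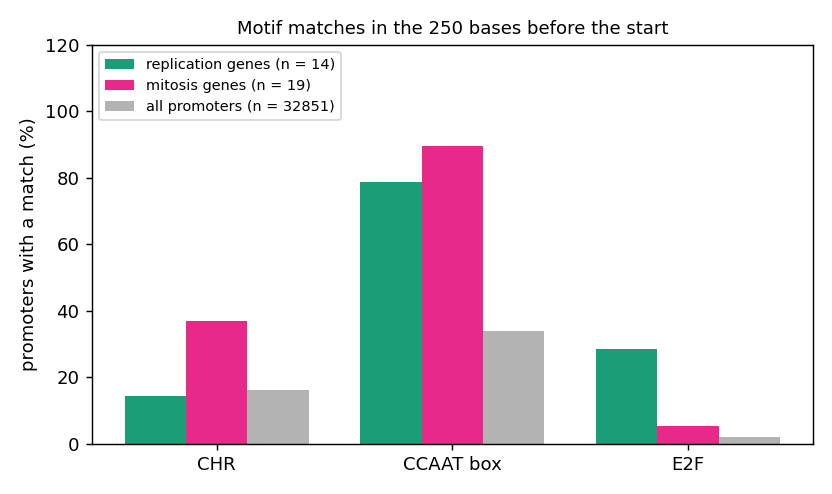
Share of promoters (in percent, y axis) with a match to each motif (x axis) in the 250 bases before the start, for replication genes, mitosis genes and all promoters in the table. CCAAT boxes stand at 89.5% in mitosis genes and 78.6% in replication genes, against 33.8% of all promoters.

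Most replication genes had counts in every library, whereas most mitosis genes had 0 counts in at least 1 library. The 14 replication genes summed to 519 and 479 CPM under high fiber and to 577 and 592 CPM under the control diet. The 24 mitosis genes summed to 120 and 172 CPM under high fiber and to 108 and 173 CPM under the control diet. Kif23 held much of that sum, at 49.0 to 87.3 CPM, and Top2a, next by mean level, held 8.08 to 14.0 CPM. This pair was not set by a rule made beforehand. Without it the sum was 57.1 and 99.7 CPM under high fiber and 43.7 and 74.1 CPM under the control diet. Counts were present in all 4 libraries for 12 of 14 replication genes and for 8 of 24 mitosis genes. Of the 24 mitosis genes, 19 and 18 had a count in the high-fiber libraries and 12 and 19 in the control libraries, so the deepest library, control 1, held the fewest. In bulk RNA, fewer dividing cells and less RNA per dividing cell cannot be told apart.

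**Figure D2:**
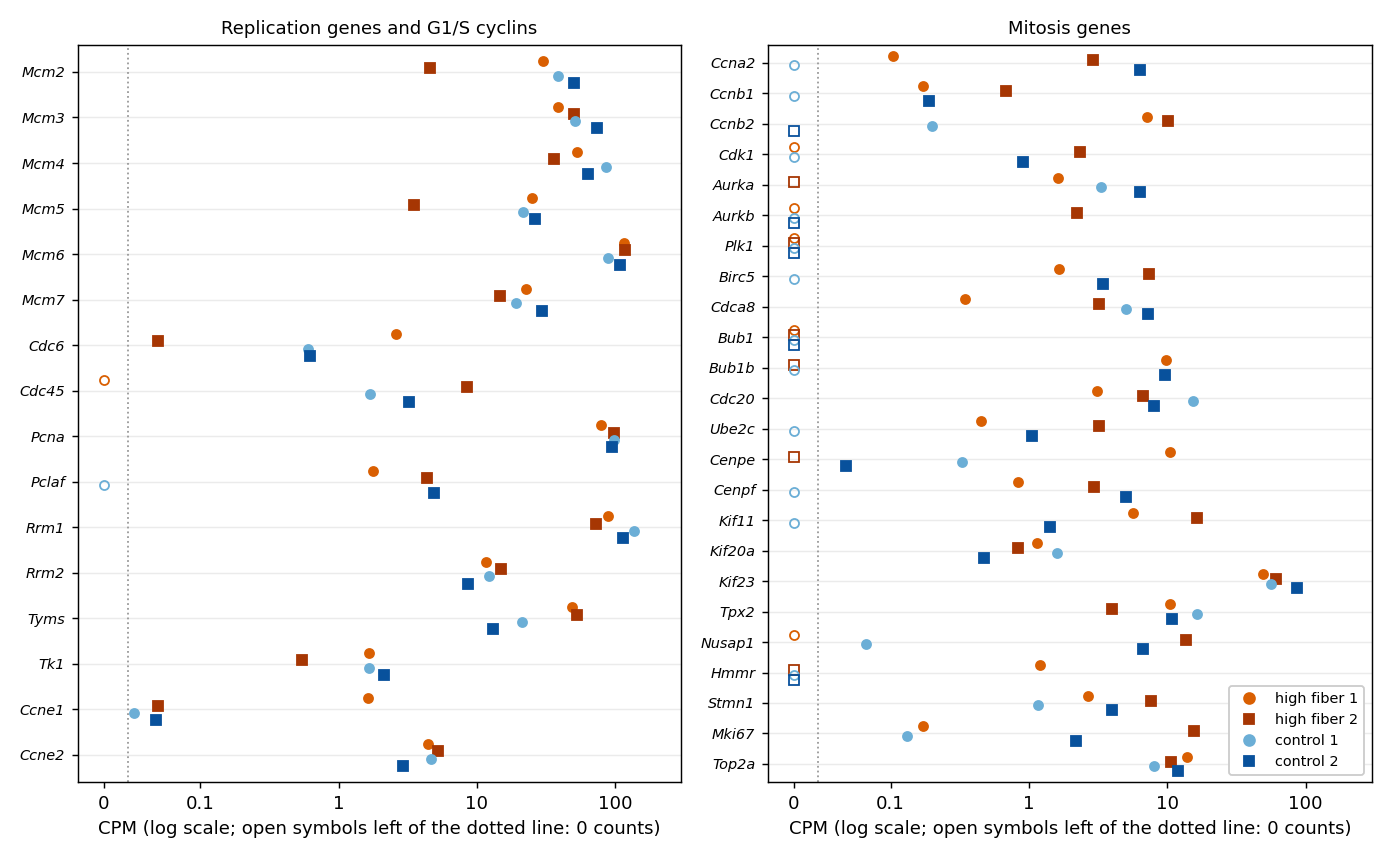
Level of each gene in each library (x axis, CPM on a log scale, with 0 drawn left of the dotted line as an open symbol), with genes down the y axis. Pcna, Mcm6 and Rrm1 lie between 72.5 and 137 CPM in all 4 libraries, while Nusap1 lies between 0 and 13.6 CPM.

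Per kilobase of exon, some replication genes led the set and others were low. Pcna averaged 38.5 RPKM (CPM per kilobase of exon) over the 4 libraries (range 32.8 to 41.1 RPKM), the most of any of the 40 genes, and Mcm6 23.1 RPKM (18.9 to 25.3). The highest mitosis gene on this scale was Kif23 at 8.04 RPKM (6.20 to 11.0). Of the replication genes, Cdc6 averaged 0.185, Tk1 0.289, Pclaf 0.574 and Cdc45 0.96 RPKM. Mki67, the gene of the proliferation marker Ki-67, averaged 0.449 RPKM (0.0132 to 1.55). Values on this scale depend on the annotated exons, here merged over all GENCODE transcripts of a gene.

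The Mcm genes differed in which library was low. Mcm6 was at 115 and 118 CPM in the high-fiber libraries and at 88.4 and 109 CPM in the control libraries, a log2 fold change of 0.25 ± 0.24 (SE, n = 2 each). Its high-fiber libraries lay narrowly above its control libraries. Mcm2 held 865 and 93 counts under high fiber and 1170 and 1064 counts under the control diet (-1.27 ± 0.66). Mcm5 stood at 25.1 and 3.48 CPM under high fiber and at 21.4 and 26.1 CPM under the control diet (-0.62 ± 0.72). Both genes were low in high-fiber library 2 alone, whose level was 0.152 times that of high-fiber library 1 for Mcm2 (95% counting interval 0.122 to 0.189) and 0.139 times for Mcm5 (0.107 to 0.177). Without that library the log2 fold change of Mcm5 was 0.085 and that of Mcm2 -0.57, and without high-fiber library 1 they were -2.73 and -3.25. The 6 proteins make a ring with 1 copy of each, yet per kilobase the highest Mcm2 to Mcm7 transcript exceeded the lowest by 5.72 and 38.6 times in the high-fiber libraries and by 5.51 and 3.57 times in the control libraries.

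The other helicase genes were closer between mice. Mcm4 was at 53.2 and 35.9 CPM under high fiber and at 85.2 and 63.5 CPM under the control diet (-0.73 ± 0.33). Mcm3 was at 38.4 and 50.2 CPM under high fiber and at 51.1 and 74.2 CPM under the control diet (-0.50 ± 0.33). For both, each high-fiber library lay below each control library, by little for Mcm3. Mcm7 overlapped between diets at 22.7 and 14.6 CPM under high fiber and 19.1 and 29.4 CPM under the control diet (-0.32 ± 0.46). About 7.25% of its exon bases are shared with Ap4m1 on the opposite strand, and no strand setting of the counting is known.

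Of the other fork genes, only Pcna was abundant. Pcna was at 78.8 and 98.2 CPM under high fiber and at 98.6 and 94.0 CPM under the control diet (-0.13 ± 0.25), with overlapping groups. Its sign turned to 0.054 without high-fiber library 1. Cdc45, the helicase activator, held 0 and 174 counts under high fiber and 51 and 68 counts under the control diet. Cdc6, the loader, held 75 and 1 counts under high fiber and 18 and 13 under the control diet. Pclaf, a partner of the clamp, held 51 and 89 counts under high fiber and 0 and 103 under the control diet. Each of these 3 genes had its own high and low library. A count of 0 allows up to 3 counts in a library, counting error only.

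Enzymes that supply deoxynucleotides included the largest positive and a separated negative difference among the replication genes, neither past edgeR's threshold. Tyms, the thymidylate synthase, was at 49.0 and 52.6 CPM under high fiber and at 21.3 and 13.0 CPM under the control diet, means of 50.8 ± 2.54 and 17.1 ± 5.91 CPM (SD, n = 2 each). Both high-fiber libraries lay above both control libraries, with a log2 fold change of 1.53 ± 0.37 (edgeR adjusted p = 0.447, DESeq2 adjusted p = 0.0258). Its pseudogene Tyms-ps held at most 1 count in a library. Rrm1, the large subunit of ribonucleotide reductase, was at 88.9 and 72.5 CPM under high fiber and at 137 and 113 CPM under the control diet (-0.63 ± 0.25, edgeR adjusted p = 0.545), again with separate groups. Its partner Rrm2, the subunit tied to S phase, overlapped at 11.6 and 15.0 CPM under high fiber and 12.3 and 8.62 CPM under the control diet (0.29 ± 0.52). Tk1, the thymidine kinase of the salvage route, held 48 and 11 counts under high fiber and 50 and 45 counts under the control diet. Tyms and Tk1, which make the same nucleotide by different routes, thus had opposite signs (1.53 and -0.64 ± 0.88), and the difference between them was not tested.

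The G1/S cyclins, which start replication with Cdk2, were scarce. Ccne2 overlapped at 4.40 and 5.25 CPM under high fiber and 4.67 and 2.91 CPM under the control diet (0.28 ± 0.71). It shares 17.4% of its exon bases with Ints8 on the opposite strand. Ccne1 held 47 and 1 counts under high fiber and 1 and 1 counts under the control diet, so a single library carried it, and it did not enter the test.

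Among the mitotic cyclins Ccnb2 stood apart from its relatives. Ccnb2, a B-type cyclin that activates Cdk1, held 208 and 205 counts in the high-fiber libraries and 6 and 0 counts in the control libraries. Both high-fiber libraries were high and both control libraries at or near 0. Pooled by diet, its level was 71.5 times higher under high fiber (95% counting interval 32.6 to 196, which leaves out the spread between mice), and the log2 fold change was 6.12 ± 1.36 (edgeR adjusted p = 0.447, DESeq2 adjusted p = 4.19e-04). Ccnb1, the other B-type cyclin, held only 5 and 14 counts under high fiber and 0 and 4 under the control diet and was not tested. Cdk1, their kinase, held 0 and 48 counts under high fiber and 0 and 19 under the control diet (1.39 ± 1.96). Ccna2, the A-type cyclin of S and G2 phase, held 3 and 59 counts under high fiber and 0 and 134 under the control diet (-1.08 ± 1.67). Cdk1 and Ccna2 were thus seen mainly in library 2 of either diet, while Ccnb2 was seen in both libraries of the high-fiber diet. Ccna2 shares 12.5% of its exon bases with Exosc9 on the opposite strand.

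Mitotic kinases and chromosomal passenger genes had differences of both signs. Aurka, the spindle-pole Aurora kinase, held 47 and 0 counts under high fiber and 100 and 134 counts under the control diet (-2.28 ± 1.12). Cdca8, the passenger protein borealin, held 10 and 66 counts under high fiber and 151 and 153 under the control diet (-1.94 ± 0.98). In both genes each high-fiber library lay below each control library. Birc5, which encodes the passenger protein survivin, held 48 and 150 counts under high fiber and 0 and 72 under the control diet (1.52 ± 1.35), with overlapping groups. Aurkb, the kinase of the same passenger complex, held 45 counts in high-fiber library 2 and 0 in the other 3 libraries. Plk1, the polo-like kinase of mitotic entry, had 0 counts in all 4.

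Checkpoint and ubiquitin ligase genes peaked in different libraries. Cdc20, the activator of the anaphase-promoting complex, held 90 and 137 counts under high fiber and 464 and 168 counts under the control diet (-1.37 ± 0.71). On the CPM scale its groups did not overlap, and control library 1 was the highest. Bub1b, the checkpoint protein BubR1, held 285 and 0 counts under high fiber and 0 and 203 under the control diet (0.44 ± 1.5). In each diet a single library carried it and the other lacked it. Ube2c, the ubiquitin-conjugating enzyme of the same complex, held 13 and 66 counts under high fiber and 0 and 22 under the control diet (1.90 ± 1.62). Bub1, the checkpoint kinase, had 0 counts in all 4 libraries. The kinetochore motor Cenpe held 303 and 0 counts under high fiber and 10 and 1 under the control diet, and Cenpf, another kinetochore protein, 24 and 60 counts under high fiber and 0 and 105 under the control diet.

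Spindle motors held both the most abundant and some of the most variable mitosis genes. Kif23, the central spindle kinesin of cytokinesis, was at 49.0 and 61.4 CPM under high fiber and at 56.3 and 87.3 CPM under the control diet (-0.37 ± 0.33), with overlapping groups. Kif11, the kinesin that pushes spindle poles apart, was at 5.68 and 16.4 CPM under high fiber and at 0 and 1.43 CPM under the control diet (4.13 ± 1.29, edgeR adjusted p = 0.447, DESeq2 adjusted p = 0.282). Its groups did not overlap, and the log2 fold change was 2.88 without control library 1 and 11.13 without control library 2, where control library 1 with 0 counts stands alone. Tpx2, which activates Aurora A on the spindle, was at 10.4 and 3.98 CPM under high fiber and at 16.5 and 10.9 CPM under the control diet (-0.89 ± 0.63). Nusap1, a microtubule-bundling protein, held 0 and 277 counts under high fiber and 2 and 141 under the control diet (1.04 ± 1.67), so library 2 of each diet carried it. Stmn1, a microtubule-destabilizing protein, held 77 and 155 counts under high fiber and 35 and 84 under the control diet (1.03 ± 0.96). Hmmr held 35 counts in high-fiber library 1 and 0 elsewhere. Kif20a held 33 and 17 counts under high fiber and 48 and 10 under the control diet, but 29.3% of its exon bases are shared with Cdc23 on the opposite strand.

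The classic proliferation markers gave different pictures. Mki67 was at 0.173 and 15.6 CPM under high fiber and at 0.132 and 2.19 CPM under the control diet (2.80 ± 1.77). Library 2 exceeded library 1 by 89.8 times under high fiber (95% counting interval 38.1 to 279) and by 16.5 times under the control diet (6.04 to 63.3). Top2a, the topoisomerase of replicating and condensing chromosomes, was at 14.0 and 10.6 CPM under high fiber and at 8.08 and 12.0 CPM under the control diet (0.35 ± 0.54). Of the 2 libraries that nearly lacked Mki67, high-fiber library 1 was the highest in Top2a and control library 1 the lowest.

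High-fiber library 2 was the most frequent peak of the 24 mitosis genes, but it did not carry the whole set. Of the 22 mitosis genes with any count, 10 had their highest CPM there (Ccnb1, Ccnb2, Cdk1, Aurkb, Birc5, Ube2c, Kif11, Nusap1, Stmn1 and Mki67), 4 in high-fiber library 1, 3 in control library 1 and 5 in control library 2. Over all 15425 genes with any count, the shares were 27.2% for high-fiber library 2, 25.4% for high-fiber library 1, 24.7% for control library 1 and 22.8% for control library 2. High-fiber library 2 exceeded each other library by more than 2-fold for 8 of the 24 mitosis genes and 1 of the 14 replication genes, against 6.09% of genes with any count. The same library was strictly the lowest for 7 of the 14 replication genes, against 25.9% of genes with any count. A wider list held 64 further mitosis genes with any count. Of these, 25 peaked in high-fiber library 2, 21 in control library 2, 14 in high-fiber library 1 and 4 in control library 1. In that list control library 2 exceeded each other library by more than 2-fold for 14 genes, but its share over all genes was not computed. High-fiber library 2 did so for 7, against 6.09% of genes with any count. Summed over the 24 mitosis genes, library 2 exceeded library 1 by 1.43 times under high fiber (95% counting interval 1.36 to 1.5) and by 1.60 times under the control diet (1.53 to 1.68). High-fiber library 2 and control library 2 did not differ in this sum beyond counting error (ratio 0.990, 0.945 to 1.04). That ratio was 1.35 (1.26 to 1.44) without Kif23 and Top2a. The ratio of high-fiber library 1 to control library 1 was 1.11 (1.06 to 1.17) with all 24 genes. Without Kif23 and Top2a it was 1.31 (1.22 to 1.41). Library 2 is the shallower of each diet, and 13 of the 24 mitosis genes and 2 of the 14 replication genes had 0 counts in some library and 30 or more in another, against 10.0% of genes with any count. Reads copied by PCR are not independent molecules, so these intervals cover counting error only.

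**Figure D3:**
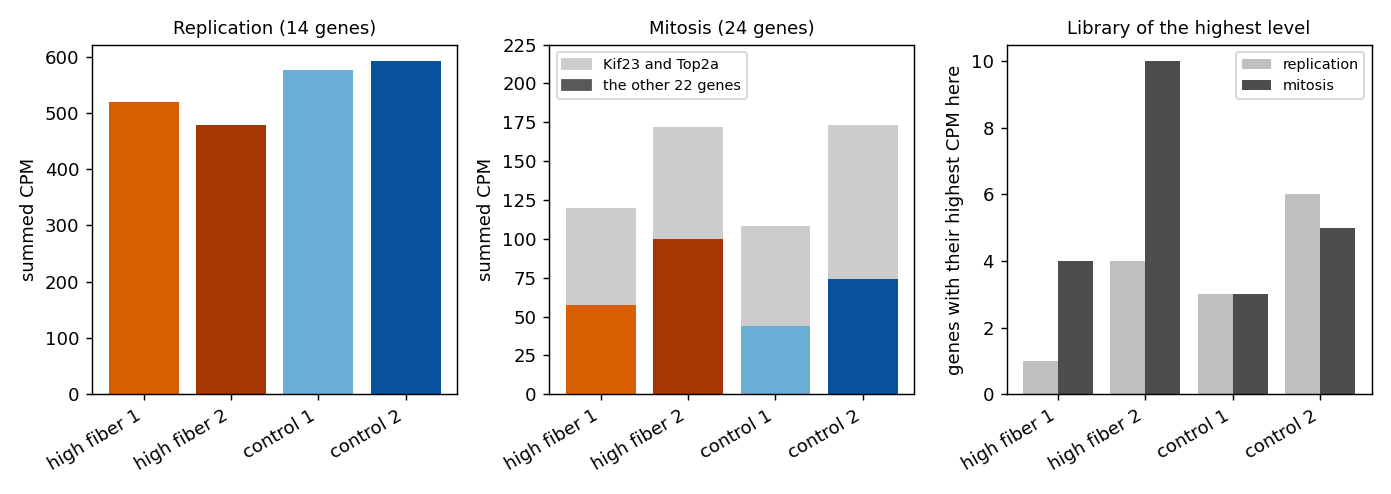
Summed CPM of the 14 replication genes (left) and 24 mitosis genes (middle, Kif23 and Top2a in grey) by library, and the number of genes with their highest level in each library (right). Replication sums lie between 479 and 592 CPM, and 10 mitosis genes peak in high-fiber library 2.

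Between diets, none of the 40 genes passed edgeR's quasi-likelihood test. Of 33 genes that entered it, 0 passed in either direction at an adjusted p under 0.05 over 11841 genes, where 0.0338% of all tested genes were higher and 0.00% lower. The adjusted p of the 33 ran between 0.447 and 0.983. At a p under 0.05 before adjustment, 3 lay higher (Tyms, Ccnb2 and Kif11) against 4.70% of all tested genes, and 1 lay lower (Rrm1) against 4.10%. DESeq2 called 2 higher, Ccnb2 and Tyms, against 1.28% of the genes it tested, and 0 lower against 0.635%. limma-voom called 0. Both high-fiber libraries lay above both control libraries for 4 of the 33 tested genes (Mcm6, Tyms, Ccnb2 and Kif11) against 18.5% of all tested genes, and below them for 8 (Mcm2, Mcm3, Mcm4, Rrm1, Aurka, Cdca8, Cdc20 and Tpx2) against 19.6%.

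DESeq2's calls depended on which libraries entered. The DESeq2 adjusted p of Tyms was 0.0713 without high-fiber library 1, 0.259 without high-fiber library 2, 0.0779 without control library 1 and 0.656 without control library 2. That of Ccnb2 was 0.00909, 0.127, 0.00693 and 0.0228 with the same libraries left out in that order. Tyms thus missed the threshold each time and Ccnb2 without high-fiber library 2. The DESeq2 log2 fold change of Tyms was 1.65, 1.52, 1.99 and 1.27 in the same order (1.58 with all libraries), and that of Ccnb2 without high-fiber library 2 was 6.13 (6.37 with all). Without high-fiber library 1, high-fiber library 2 alone stands for the diet. The edgeR log2 fold change was then -3.25 for Mcm2, -2.73 for Mcm5 and -9.78 for Aurka, which held 0 counts there. These fits assume that the lone library of a diet varies like the others.

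The median log2 fold change was -0.23 for the 14 tested replication genes, with 6 positive and 8 negative values, and 0.39 for the 18 tested mitosis genes, with 10 positive and 8 negative. The median over all tested genes was -0.016. Without high-fiber library 2 the mitosis median was -0.21, and without control library 2 it was 6.03, where many of these genes are set against 0 counts.

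**Figure D4:**
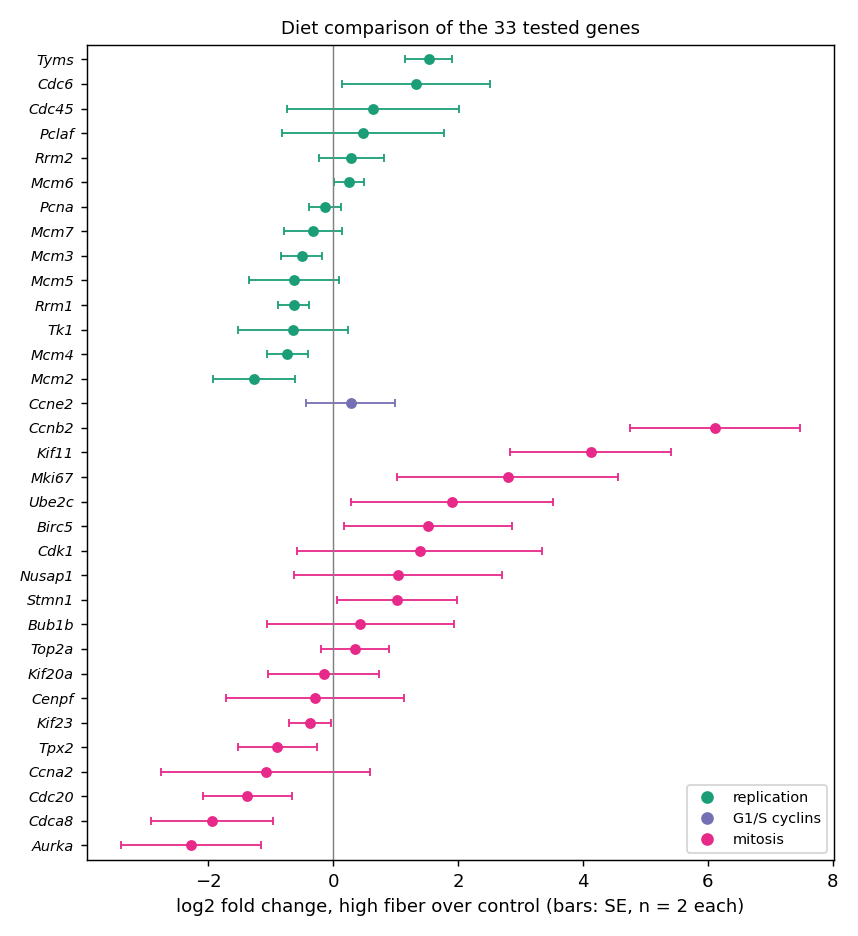
Log2 fold change of high fiber over control (x axis, bars are SE, n = 2 each) for the 33 tested genes (y axis), ordered within replication, G1/S and mitosis. Replication genes lie between -1.27 and 1.53, while mitosis genes spread from -2.28 for Aurka to 6.12 for Ccnb2.

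Other genes of the pathway, listed by role, gave no edgeR call either. Of 45 tested further replication genes, 0 passed in either direction, with a median of -0.071 against -0.016 for all tested genes. DESeq2 called Wdhd1, a fork protein, lower (adjusted p = 0.00661): it held 52 and 50 counts under high fiber and 629 and 251 counts under the control diet (-3.01 ± 0.73). Pola2, a subunit of DNA polymerase alpha, was at 21.1 and 10.9 CPM under high fiber and at 44.8 and 37.6 CPM under the control diet (-1.33 ± 0.42). Both were lower in each high-fiber library, as were 8 of the 45 tested genes in all, against 19.6% of all tested genes. Both high-fiber libraries lay above both control libraries for 9 of the 45, against 18.5%. Cdc7, the kinase that fires origins by phosphorylating Mcm proteins, was at 33.2 and 24.5 CPM under high fiber and at 9.97 and 9.82 CPM under the control diet (1.56 ± 0.44). Dnmt1, which copies DNA methylation behind the fork, was at 20.7 and 40.5 CPM under high fiber and at 13.9 and 7.72 CPM under the control diet (1.43 ± 0.54). Below a mean of 5 CPM, Brca2, a gene of fork protection and repair, was at 5.51 and 8.29 CPM under high fiber and at 0.894 and 0.667 CPM under the control diet (3.06 ± 0.86, edgeR adjusted p = 0.447).

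Of 48 tested further mitosis genes 0 passed edgeR, with 31 positive and 17 negative values and a median of 0.23. Ckap5, a microtubule polymerase, was at 102 and 59.2 CPM under high fiber and at 45.5 and 23.5 CPM under the control diet (1.21 ± 0.43). Racgap1, the partner of Kif23 in the central spindle, was at 24.6 and 16.8 CPM under high fiber and at 5.10 and 9.91 CPM under the control diet (1.55 ± 0.56), beside -0.37 ± 0.33 for Kif23 itself. Shcbp1 was at 0.866 and 1.42 CPM under high fiber and at 1.95 and 17.5 CPM under the control diet, a difference carried by control library 2. Cenpn, a centromere protein, overlapped (-1.02 ± 0.89). Below a mean of 5 CPM, the spindle gene Dlgap5 was at 6.48 and 2.36 CPM under high fiber and at 0 and 0.667 CPM under the control diet (4.07 ± 1.39, edgeR adjusted p = 0.456). DESeq2 called the condensin gene Ncapg2 lower (adjusted p = 0.0125), with 0 counts in both high-fiber libraries and 16 and 170 counts in the control libraries.

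Of 24 regulators upstream of both waves, 18 had counts in all 4 libraries, and 0 of 18 tested E2F, RB and DREAM genes passed edgeR. Foxm1, E2f8 and Mybl1, activators or feedback factors of cycling cells, had 0 counts in all 4 libraries. Rbl1, the pocket protein p107, was at 16.3 and 19.0 CPM under high fiber and at 35.1 and 37.3 CPM under the control diet (-1.04 ± 0.36). Lin52, a MuvB subunit, was at 23.2 and 29.5 CPM under high fiber and at 43.6 and 38.9 CPM under the control diet (-0.67 ± 0.34). Lin54, the MuvB subunit that binds CHR motifs, was at 73.4 and 66.5 CPM under high fiber and at 51.6 and 36.6 CPM under the control diet (0.66 ± 0.30). E2f5 was at 23.7 and 32.8 CPM under high fiber and at 12.9 and 18.8 CPM under the control diet (0.84 ± 0.44). E2f1, an activator E2F of the G1/S wave, below a mean of 5 CPM, was at 4.02 and 8.49 CPM under high fiber and at 0.861 and 1.33 CPM under the control diet (2.49 ± 0.91, edgeR adjusted p = 0.498). In each of these 5 genes, chosen by small p or after their values were seen, the diets did not overlap, and none passed the threshold. Of the 18 tested genes, both high-fiber libraries lay above both control libraries for 4, against 18.5% of all tested genes. They lay below for 3, against 19.6%.

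Genes of the G1 phase had counts in all 4 libraries (12 of 12), as had 17 of 19 genes of cell-cycle arrest. Of 12 tested G1 cyclins, kinases and Myc genes 0 passed, with 3 positive and 9 negative values and a median of -0.51. Myc, a transcription factor of cell growth, was at 385 and 350 CPM under high fiber and at 533 and 543 CPM under the control diet (-0.55 ± 0.20, edgeR adjusted p = 0.499). Mycn was at 38.3 and 9.28 CPM under high fiber and at 68.7 and 39.6 CPM under the control diet (-1.14 ± 0.60). Cdk6, which partners D-type cyclins, was at 30.7 and 22.4 CPM under high fiber and at 11.0 and 16.7 CPM under the control diet (0.99 ± 0.45). The diets did not overlap for these 3 genes, chosen by small p, while Cdk2 did overlap (0.11 ± 0.27). Of the 12 genes, both high-fiber libraries lay above both control libraries for 1, against 18.5% of all tested genes. They lay below for 5, against 19.6%. Of 18 tested inhibitors and quiescence genes 0 passed (7 positive, 11 negative). Cdkn1a, the p21 inhibitor, was at 468 and 508 CPM under high fiber and at 832 and 599 CPM under the control diet (-0.55 ± 0.24), and Gadd45b, a stress-induced gene, at 2552 and 2068 CPM under high fiber and at 3310 and 2951 CPM under the control diet (-0.44 ± 0.23). Gadd45g, its relative, was at 272 and 285 CPM under high fiber and at 140 and 210 CPM under the control diet (0.68 ± 0.26). Wee1, the kinase that restrains Cdk1, overlapped (1.26 ± 0.80).

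Markers of other cells that could enter the sort were also read. B and plasma cell markers (13 of 15 with counts, Pax5 and Tnfrsf17 at 0) summed to 763 and 1780 CPM under high fiber. Under the control diet they summed to 638 and 655 CPM, so high-fiber library 2 was the highest. Igkc, the kappa light chain, was at 112 and 458 CPM under high fiber and at 37.4 and 4.15 CPM under the control diet. Igha, the IgA heavy chain, was at 101 and 424 CPM under high fiber and at 60.4 and 3.29 CPM under the control diet, while Ighm overlapped. Control library 2 was the lowest in Igkc and Igha. T cell markers (11 of 14 with counts, Cd8a, Cd8b1 and Cd5 at 0) summed to 1242 and 1467 CPM under high fiber and to 1377 and 1557 CPM under the control diet. The sum was higher in library 2 of each diet and was led by Trbc1, Lat and Cd3g, which ILC2s also express in part. Of 9 tested T cell markers, 1 was positive (Cd3g) and 8 negative, and 0 passed edgeR. Themis held 52 and 43 counts under high fiber and 363 and 334 under the control diet (-2.83 ± 0.71, DESeq2 adjusted p = 0.00967). Foxp3 held 4 and 86 counts under high fiber and 4 and 1 under the control diet.

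Macrophage, monocyte and dendritic cell markers (16 of 17 with counts, Itgax at 0) summed to 466 and 489 CPM under high fiber and to 317 and 418 CPM under the control diet, led by Apoe, Zbtb46 and Lyz2. Epithelial markers, from a tissue with many dividing crypt cells, summed to 32.2 and 42.4 CPM under high fiber and to 38.3 and 31.6 CPM under the control diet. Of these, 10 of 16 were at 0 in every library, including Krt8, Vil1 and the crypt stem cell genes Lgr5 and Olfm4, and Epcam led at 25.8 and 36.9 CPM under high fiber and 25.1 and 27.3 CPM under the control diet. Stromal and endothelial markers summed to 64.5 and 42.8 CPM under high fiber and to 44.9 and 44.7 CPM under the control diet, nearly all from Pecam1. Mast cell and granulocyte markers were at 0 for 9 of 12. Kit, which ILC2s can express, was at 666 and 379 CPM under high fiber and 273 and 212 CPM under the control diet (edgeR adjusted p = 0.447, DESeq2 adjusted p = 0.0405). Cpa3 held 0 and 0 counts under high fiber and 40 and 21 under the control diet, and Fcer1a overlapped. The part of other cell types in the levels of the cell-cycle genes was not tested.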

How the data were processed

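Per the labels' protocols, a SMARTer ultra-low-input kit, which amplifies by PCR, was used. Per the submitters' processing notes, CASAVA 1.8.2, STAR 2.3.0 and mm10 were used, without their roles. The authors deposited whole-number read counts per NCBI gene, not normalized. The sources used here give neither the counting program nor its strand setting. Symbols came from RefSeq GRCm38.p6 (25275 of 27179 identifiers) and exon lengths from GENCODE M21.

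Counts were tested with edgeR 4.0.16 in R 4.3.3: filterByExpr (11841 genes), TMM, glmQLFit (legacy=FALSE, robust off), glmQLFTest and Benjamini-Hochberg adjustment at 0.05 across all genes, with diet as the only term. SE is the log2 fold change over the root of F. The fit had 2 residual degrees of freedom and a common biological coefficient of variation of 0.607. DESeq2 1.42.0, limma-voom (limma 3.58.1), other scalings and filters, a replicate block and each library left out were alternatives. Fits were tested on simulated data. Ratios carry exact 95% binomial intervals.

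Members and lists were chosen with earlier results of these data known. Members with a mean of at least 5 CPM and Mki67 are given by library in CPM, except Mcm2, Cdc20 and Nusap1, which are given in counts. The rest are given in counts, except Ccne2, which is given in CPM. Other lists show the 2 genes of smallest p per direction at a mean of at least 5 CPM. Marker lists show sums and some of their members. Genes beyond these rules were chosen after their values were seen. Promoters whose 250 bases touch a GENCODE exon or the gene's own RefSeq span (27 of 34) were not printed. No list was tested as a set.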

Additional observations from a re-analysis of the deposited data

How the results depend on the processing

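With edgeR, 0 of the 40 genes passed under every scaling, filter and fit option and with the replicate block. Deviations of equally numbered libraries correlated at 0.0408 over all tested genes. Whether equal numbers share a litter or day was not tested. The block gave medians of -0.23 for replication and 0.40 for mitosis genes. The mitosis median of 0.39 was 1.03 without a filter, 1.02 with DESeq2, 0.87 with limma-voom and 0.17 with legacy=TRUE. DESeq2 called 2 higher, and 1 to 2 higher and 0 to 3 lower without 1 library, a choice made after seeing the data. The mitosis median ran from -0.21 to 6.03 without 1 library. Signs turned with limma-voom for Cdc6 (-0.16), Cdc45 (-3.13), Ccna2 (1.13), Cenpf (2.85), Kif20a (0.049) and Nusap1 (-0.78). Without 1 library, the log2 fold change spanned -2.73 to 0.085 for Mcm5, -3.47 to 2.09 for Cdc6, -8.97 to 1.89 for Cdc45, -0.30 to 0.054 for Pcna, -0.76 to 9.26 for Pclaf and -4.63 to 8.09 for Ccna2. It spanned -6.33 to 7.72 for Cdk1, -9.60 to 10.18 for Bub1b, -1.53 to 8.52 for Cenpf, -0.65 to 1.08 for Kif20a, -9.26 to 6.42 for Nusap1 and -2.48 to 5.69 for Mki67. With their sign kept, it spanned 2.88 to 11.13 for Kif11, 5.38 to 10.64 for Ccnb2, -9.78 to -1.51 for Aurka, 0.22 to 9.79 for Birc5 and 0.056 to 8.44 for Ube2c. In all, 16 of 18 tested mitosis genes and 6 of 14 replication genes moved by more than 1.5-fold without some library. The share over all tested genes, or over genes of similar level, was not computed, and most mitosis genes had low counts. Fitted values against a diet at 0 depend on the prior count and are no bounds. The cause of the other turns was not tested. With upper-quartile scaling the ratio of high-fiber library 2 to 1 was 0.968 for summed replication and 1.5 for mitosis genes, and that of control library 2 to 1 for replication was 1.05. Without scaling factors that control ratio was 1.07, and high-fiber over control library 2 was 0.766 for replication and 0.938 for mitosis. Of the 24 mitosis genes, 14 were at 0 in some library but not in all, and the deepest library held counts for the fewest. The cause of these zeros was not tested.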
